A study of Sus scrofa with 36 samples.

Results

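The miR-23, miR-24 and miR-27 clusters were described in the postnatal pig heart from a small RNA table that lists 411 mature miRNAs in 486 entries, 1 for each pair of mature miRNA and precursor. Members were all entries whose miRNA number is exactly 23, 24 or 27, with any letter or arm suffix. This rule found 8 mature miRNAs in 9 entries, namely miR-23a, miR-23b, miR-24-3p (with an entry for each of its precursors), miR-24-1-5p, miR-24-2-5p, miR-27a, miR-27b-3p and miR-27b-5p. All 8 were among the 257 mature miRNAs that were tested, which needed 10 or more counts in 3 or more libraries.

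Hearts of Yorkshire domestic pigs, fed normally, were collected at postnatal day 1 (P1), day 3 (P3), day 7 (P7) and day 28 (P28). Small RNA was sequenced by a single company (batch cd) in 12 libraries, 3 at each age and each from a different pig, and total RNA of the same batch gave gene counts in 12 libraries. The labels name no treatment, injury or genetic change, and age is the factor that separates the groups. RNA came from heart tissue with all its cell types, so that a change in the number of cells of a type and a change in the RNA per cell cannot be told apart. Small RNA libraries held 2921130 to 7917255 miRNA counts, and values are given as CPM (counts scaled to a common library size) after TMM normalization, which scales libraries so that most miRNAs do not shift. Libraries of an age carry the numbers 4 to 6, and values of an age are listed in that order. The cardiac miRNA miR-1 took 30.7% to 44.9% of the counts in each library. The summed level of 6 cardiomyocyte genes in total RNA was 69121 to 90959 CPM over the libraries, against 843 to 1620 CPM for 5 endothelial genes.

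MicroRNAs are short RNAs that pair with messenger RNAs through a seed near their 5′ end and lower the output of those messengers. The miR-23, miR-27 and miR-24 genes lie next to each other in an a cluster and a b cluster, and each cluster is copied as a common primary transcript that is cut into separate hairpins. The a and b forms of miR-23, and those of miR-27, are nearly identical and share their seed, whereas the mature 3p arm of miR-24 is the same from either cluster. In the heart and its vessels these miRNAs are known for roles in endothelial sprouting, in calcium handling of myocytes, in muscle growth and in lipid metabolism.

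In the RefSeq annotation of Sscrofa11.1, MIR23A, MIR27A and MIR24-1 are neighbours on chromosome 2, and MIR24-2, MIR27B and MIR23B are neighbours on chromosome 10 inside the gene C10H9orf3. The gene table places the hairpin genes of the a cluster at chr2:65308117-65308186 for ssc-mir-23a, chr2:65308294-65308375 for ssc-mir-27a and chr2:65308453-65308524 for ssc-mir-24-1, positions that are the same in Sscrofa11.1. Of the 106 miRNA genes of that table looked up in RefSeq, 67 had the same position, and the submitters' notes also name the build Sscrofa10.2. The 5p arm called miR-24-1-5p therefore comes from the a cluster, miR-24-2-5p comes from the b cluster, and miR-24-3p comes from either. The hairpins themselves had 0 to 9 counts in the total RNA libraries and were not tested.

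The 8 members differed widely in level, and together they took 3.36% to 5.06% of all miRNA counts in a library. miR-27b-3p, the main arm of the b cluster's miR-27, averaged 28637 CPM and ranked 8 of the 257 tested miRNAs. It was followed by miR-24-3p at 6177 CPM (rank 19) and by miR-23b at 3253 CPM (rank 25). The a forms were lower, with miR-27a at 744 CPM (rank 56) and miR-23a at 572 CPM (rank 64). The 5p arms, which are mostly discarded when the hairpin is cut, were lowest, with 71.3 CPM for miR-24-1-5p, 17.9 CPM for miR-24-2-5p and 10.24 CPM for miR-27b-5p. Within single libraries, miR-27b-3p alone made up 66.9% to 78.7% of the counts of the 8 members.

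**Figure D1:**
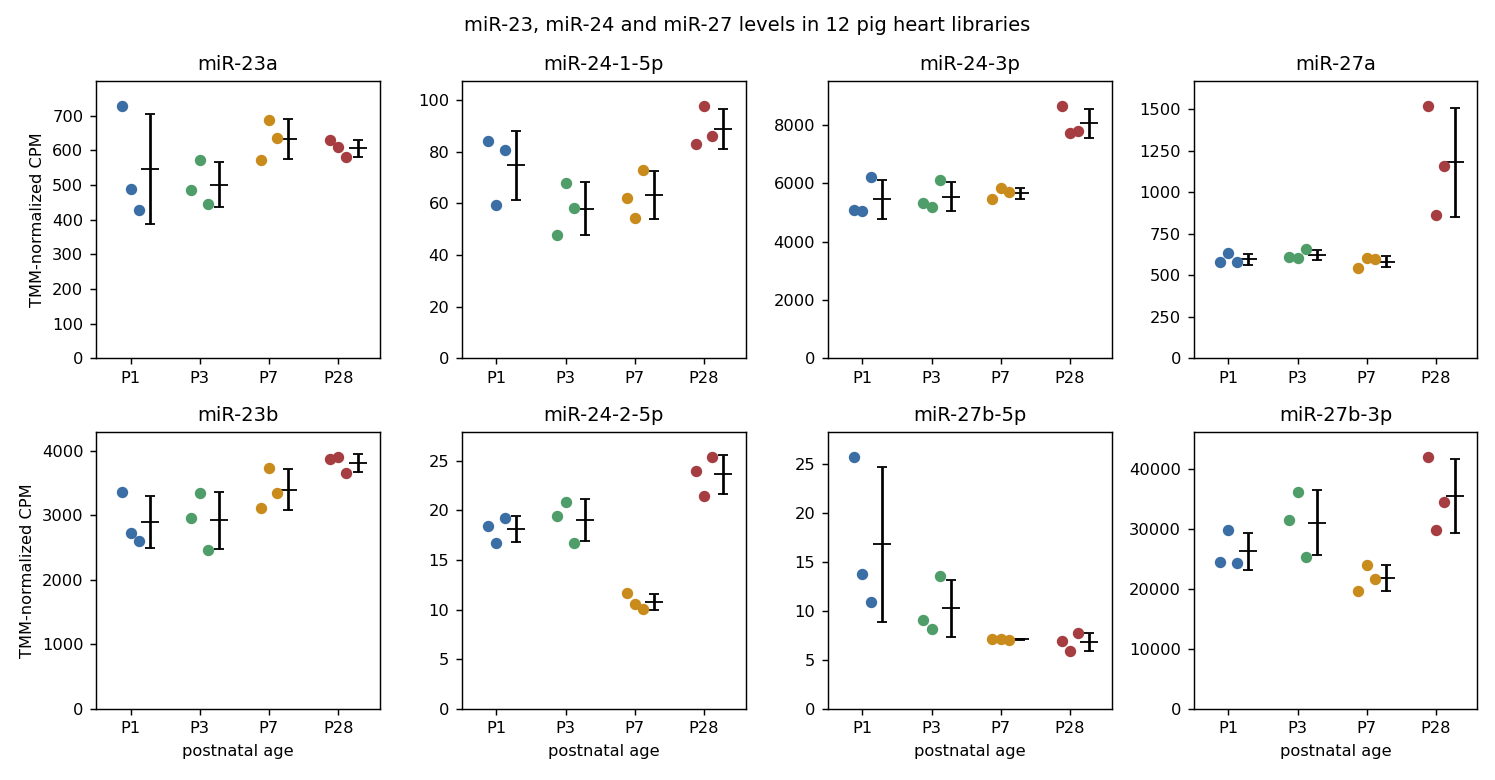
TMM-normalized CPM of each of the 8 mature miRNAs (vertical axes, each from 0) against postnatal age; each point is a library, and the bar beside the points is the mean with its SD (n = 3). The upper row holds the a cluster with miR-24-3p and the lower row the b cluster, and the 3 P28 libraries of miR-27a (864 to 1517 CPM) lie above the 9 others (543 to 655 CPM).

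Age was tested with edgeR's quasi-likelihood test on all 257 miRNAs. Over the 4 ages together, 5 of the 8 members had a Benjamini-Hochberg adjusted p under 0.05, beside 49.4% of all tested miRNAs. These were miR-27a (adjusted p = 3.83e-04 in edgeR's test), miR-24-2-5p (0.00195), miR-24-3p (0.00367), miR-27b-5p (0.00975) and miR-27b-3p (0.0101). miR-23a (0.371), miR-23b (0.0757) and miR-24-1-5p (0.0548) did not pass. For single comparisons a miRNA was called when its unadjusted p was 0.05 or less and its log2 fold change exceeded 0.5 in size, the thresholds of the study, and fold changes are given as the later over the earlier age. The comparisons with P1 share the same P1 libraries, and their values are not independent of each other.

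The comparison of P1 with P28, the widest span of age, called 3 of the 8 members, where 37.7% of all miRNAs were called. miR-27a and miR-24-3p were higher and miR-27b-5p was lower. With an adjusted p under 0.05 as the rule, without a limit on fold change, 5 members passed, beside 37.7% of all miRNAs, because miR-23b and miR-27b-3p also passed. The median log2 fold change of the 8 members was 0.39, against −0.02 for all tested miRNAs, and 7 of the 8 had a positive value, beside 49.0% of all. The libraries of P1 and P28 did not overlap for 5 members, beside 52.5% of all miRNAs.

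miR-27a, the a form of a miRNA known to act on lipid and muscle genes, had the largest rise of the 8 members between P1 and P28. Its level was 578, 633 and 577 CPM at P1, 609, 600 and 655 CPM at P3, 543, 602 and 594 CPM at P7, and 1517, 864 and 1154 CPM at P28. All 3 libraries at P28 were above the 9 earlier ones, which lay close together, and the P28 libraries also differed most among themselves. The mean was 596 ± 31.9 CPM at P1 and 1179 ± 327 CPM at P28 (SD, n = 3 each). The rise was 1.98-fold, or 0.98 ± 0.17 on the log2 scale (SE; adjusted p = 4.26e-04 in edgeR's test), and from P7 to P28 it was 1.02 ± 0.17 (adjusted p = 5.72e-04 in edgeR's test). P1, P3 and P7 could not be placed in an order, with log2 fold changes of 0.06 from P1 to P3 and −0.10 from P3 to P7. Without the highest library, number 4 of P28, the log2 fold change from P1 to P28 was 0.76.

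miR-27b-3p, the b form and the most abundant member, followed another course. Its level was 24561, 29870 and 24375 CPM at P1, 31593, 36173 and 25344 CPM at P3, 19679, 23996 and 21656 CPM at P7, and 42066, 29851 and 34480 CPM at P28. All 3 libraries at P7 were below every library of the other ages, whereas P1, P3 and P28 overlapped. It fell from P3 to P7 by 0.51 on the log2 scale (SE 0.16, adjusted p = 0.0421 in edgeR's test) and rose from P7 to P28 with a log2 fold change of 0.70 ± 0.16 (adjusted p = 0.00400 in edgeR's test). Between P1 and P28 the log2 fold change was 0.43 ± 0.16 (adjusted p = 0.0405 in edgeR's test), which is under the limit for a call. Without library 6 of P1 this log2 fold change was 0.25 (adjusted p = 0.267 in edgeR's test), whereas it passed the limit without library 5 of P1 (0.53) or library 5 of P28 (0.54). The fall from P3 to P7 was under the limit for a call without library 5 of P3 (log2 fold change −0.42) or without library 4 of P7 (−0.50).

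miR-24-3p, which represses cell cycle genes and the junctophilin gene in published work, overlapped among the 3 earlier ages and was higher at P28. It was 5088, 5034 and 6222 CPM at P1, 5336, 5183 and 6114 CPM at P3, 5454, 5832 and 5686 CPM at P7, and 8647, 7741 and 7791 CPM at P28. The P28 libraries stood above all the others, and the log2 fold changes from P1 to P3 and from P3 to P7 were 0.03 each. The rise from P1 to P28 was 1.48-fold (log2 fold change 0.57 ± 0.12, adjusted p = 0.00229 in edgeR's test), and that from P7 to P28 was 1.42-fold (0.51 ± 0.12, adjusted p = 0.00593). Both values are close to the limit for a call. Leaving out libraries in turn gave 0.43 to 0.59 for P1 to P28, with the call lost without library 4 of P1, library 4 of P3, library 5 of P3 or library 5 of P7, and the adjusted p stayed at 0.0234 or below in these fits. From P7 to P28 the same fits gave 0.46 to 0.55, with 4 of 12 above the limit and adjusted p values up to 0.0369. The counts of its entries for mir-24-1 and mir-24-2 were nearly equal in every library, with 49.6% to 49.8% assigned to mir-24-1, and do not tell how much came from each cluster.

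The other arms of the miR-24 hairpins do carry their cluster, and they differed in course. miR-24-2-5p from the b cluster was 18.4, 16.7 and 19.3 CPM at P1, 19.4, 20.9 and 16.7 CPM at P3, 11.6, 10.6 and 10.1 CPM at P7, and 23.99, 21.49 and 25.39 CPM at P28. It was lowest in all 3 libraries of P7 and highest in all 3 of P28, with P1 and P3 overlapping. The log2 fold change was −0.75 ± 0.19 from P1 to P7 (adjusted p = 0.0120 in edgeR's test), −0.82 ± 0.19 from P3 to P7 (adjusted p = 0.0154) and 1.12 ± 0.19 from P7 to P28 (adjusted p = 5.72e-04). Its counts per library were 36 to 153, so that counting error is a larger part of its spread than for the abundant members.

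miR-24-1-5p from the a cluster was 84.1, 59.3 and 80.8 CPM at P1, 47.7, 68.0 and 58.4 CPM at P3, 62.3, 54.4 and 73.0 CPM at P7, and 83.2, 97.7 and 86.1 CPM at P28. The P28 libraries were above those of P3 and P7 and overlapped with those of P1. No comparison called it, and the value nearest to a call was that from P7 to P28, with a log2 fold change of 0.50 ± 0.19 (adjusted p = 0.0654 in edgeR's test). This value lay just under the limit of 0.5, and other choices of test, filter or unit of counting put it just above. With library totals alone it was 0.14 (adjusted p = 0.593 in edgeR's test), and 0.27 with totals that leave out the most abundant miRNAs.

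Neither miR-23 form was called in any of the 6 comparisons. miR-23a was 727, 488 and 426 CPM at P1, 485, 573 and 445 CPM at P3, 573, 688 and 636 CPM at P7, and 629, 609 and 579 CPM at P28. Library 4 of P1 was the highest of all 12 and the other P1 libraries were among the lowest, so that P1 overlapped with every later age. Its log2 fold changes ran from −0.13 (P1 to P3) to 0.34 (P3 to P7). miR-23b was 3356, 2729 and 2601 CPM at P1, 2952, 3345 and 2462 CPM at P3, 3105, 3728 and 3346 CPM at P7, and 3864, 3902 and 3651 CPM at P28. Its P28 libraries were above all those of P1 and P3 but not above all of P7. The log2 fold change from P1 to P28 was 0.39 ± 0.14 (adjusted p = 0.0405 in edgeR's test), not a call under the limit on fold change, and between 0.20 and 0.42 when libraries were left out in turn, with adjusted p values up to 0.295.

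miR-27b-5p, the minor arm of the miR-27b hairpin, went the other way. It was 25.7, 13.7 and 10.9 CPM at P1, 9.04, 8.09 and 13.6 CPM at P3, 7.13, 7.11 and 7.00 CPM at P7, and 6.93, 5.90 and 7.73 CPM at P28. The P1 libraries were all above those of P7 and P28, and library 4 of P1 stood far above the rest. Compared with P1, its log2 fold change was −1.22 ± 0.31 at P7 (adjusted p = 0.0120 in edgeR's test), −1.29 ± 0.32 at P28 (adjusted p = 0.00577) and −1.08 ± 0.24 against the mean of the later ages (adjusted p = 0.00493). At P3 the log2 fold change was −0.72 ± 0.30, a call at the unadjusted p of 0.0333 in edgeR's test with an adjusted p of 0.252. With a library left out, this call was kept in 7 of 12 fits. It was lost without library 4 of P1 (−0.32), library 4 of P3 (−0.66), library 5 of P3 (−0.60), library 4 of P7 (−0.68) or library 6 of P28 (−0.68). Without library 4 of P1 the values were −0.86 at P7, −0.97 at P28 and −0.71 against the later ages (adjusted p = 0.0440 for the last in edgeR's test), smaller but still calls. The counts behind these values were 21 to 81 per library.

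**Figure D2:**
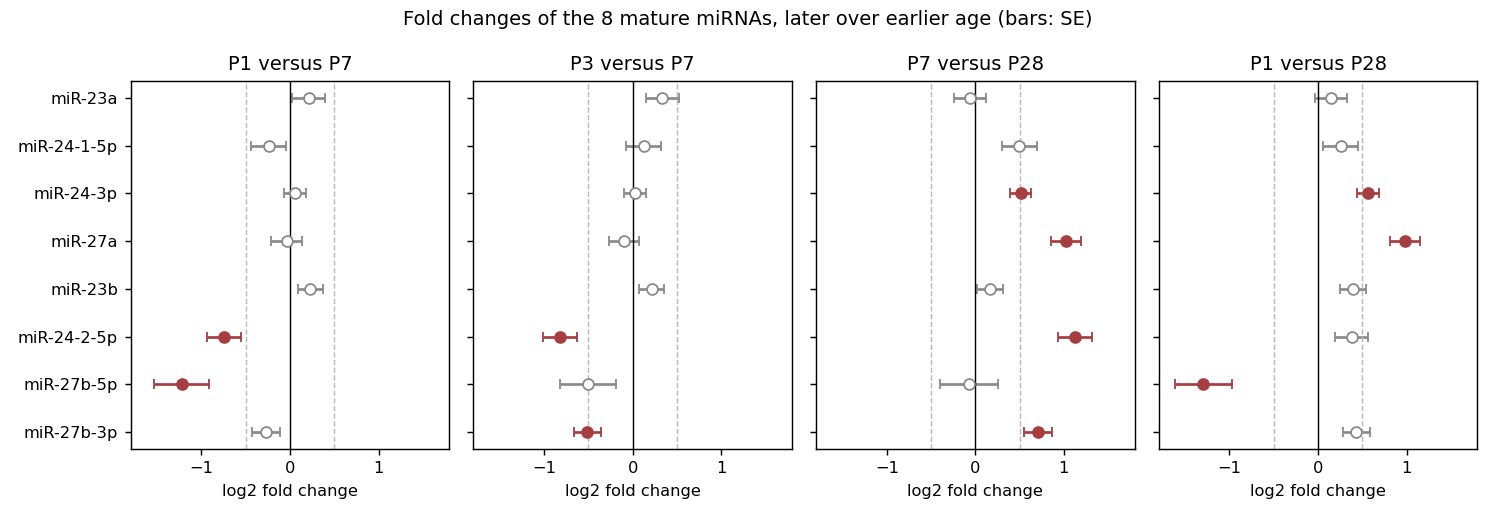
Log2 fold change (later over earlier age, horizontal axis) of the 8 mature miRNAs in 4 comparisons, with bars of 1 SE; filled red points were called and dashed lines mark the limits of −0.5 and 0.5. From P7 to P28 the 4 called members all lie to the right, between 0.51 for miR-24-3p and 1.12 for miR-24-2-5p.

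In the other comparisons with P1, calls were few. P1 against P3 called 1 member (miR-27b-5p), where 13.2% of all miRNAs were called, and P1 against P7 called 2 (miR-24-2-5p and miR-27b-5p), where 28.8% were called. P1 against the mean of P3, P7 and P28 called 1 member, miR-27b-5p, beside 20.6% of all miRNAs. The median log2 fold change of the members was 0.02 at P3 and −0.14 at P7, against −0.02 and 0.01 for all miRNAs.

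Between neighbouring ages, P3 against P7 called 2 members, both lower at P7 and both made by the b cluster (miR-24-2-5p and miR-27b-3p), where 23.7% of all miRNAs were called and 10.9% were called lower. P7 against P28 called 4 members, all higher at P28 (miR-24-2-5p, miR-27a, miR-27b-3p and miR-24-3p), where 32.3% of all miRNAs were called and 13.6% were called higher. The median log2 fold change of the members from P7 to P28 was 0.50, against −0.01 for all miRNAs. Some cardiomyocyte markers moved over the same ages and others did not. From P3 to P7, miR-208b (log2 fold change −0.62) and miR-499-3p (−0.92) were called lower. The other 5 cardiomyocyte miRNAs were not called, with −0.02 for miR-1 and 0.13 for miR-133a-3p. The summed level of all 7 averaged 366715 CPM at P3 and 361120 CPM at P7. The miRNAs miR-1 (0.61), miR-133b (0.99) and miR-499-3p (0.85) were called higher at P28 than at P7. The summed level of the 6 cardiomyocyte genes in total RNA was 80784 to 89185 CPM at P1, 76744 to 88760 CPM at P3, 69121 to 77387 CPM at P7 and 77747 to 90959 CPM at P28, so that P3 and P7 overlapped and all P7 libraries lay below those of P1 and P28. TNNI3, the cardiac troponin I gene, was called lower at P7 than at P1 (−0.52, adjusted p = 0.0674 in edgeR's test), and the other 5 were not called in that comparison. None of these 6 genes was called from P3 to P7 in edgeR's test, where TNNI3 (−0.43), MYBPC3 (−0.40) and MYL3 (−0.35) had an unadjusted p under 0.05 and were under the limit on fold change. At P28, compared with P7, TNNI3 (0.71), MYBPC3 (0.69) and TNNC1 (0.54) were called higher and ACTC1 (−0.50) lower, with MYL3 (0.15) and TPM1 (−0.11) not called. Markers of other cell types moved as well. From P3 to P7 the erythroid miR-486 (1.17) and the leukocyte miR-150 (0.62) and miR-142-3p (0.56) were called higher. The erythroid miR-144 (−0.01) and miR-451 (0.23) and the leukocyte miR-142-5p (0.17) were not called. The part of all these markers in the values of miR-27b-3p and miR-24-2-5p at P7 was not tested.

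The size of the rise at P28 depended on how libraries were scaled. The TMM factors of the P28 libraries were 0.800 to 0.899, against 0.967 to 1.14 at the earlier ages. With library totals alone, the median log2 fold change of all 257 miRNAs from P1 to P28 was −0.23, that of miR-27a was 0.78 and still a call, and that of miR-24-3p was 0.36 and no longer a call. The values of miR-23b (0.19, adjusted p = 0.307 in edgeR's test) and miR-27b-3p (0.23, adjusted p = 0.213) also no longer passed an adjusted p of 0.05. From P3 to P7, miR-27b-3p was −0.43 with library totals and no longer a call. From P7 to P28 the median of all miRNAs was −0.38 with library totals, where miR-27a and miR-24-2-5p were called and miR-24-3p (0.15) and miR-27b-3p (0.34) were not. The share of higher miRNAs among all called was 45.4% for P1 to P28 and 42.2% for P7 to P28 under TMM, and 30.9% and 15.2% with library totals. Fold changes and sums of the marker miRNAs are given under TMM only.

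Ratios of members within a library do not depend on the scaling of libraries, and they were compared over the 4 ages with a two-sided exact permutation test of the F statistic over all 15400 splits of 12 libraries into 4 ages of 3, where the smallest possible p is 6.49e-05, with adjustment over 5 ratios. The ratio of miR-27a to miR-27b-3p, the a and b forms, was 2.35%, 2.12% and 2.37% at P1, 1.93%, 1.66% and 2.58% at P3, 2.76%, 2.51% and 2.74% at P7, and 3.61%, 2.90% and 3.35% at P28. Every P28 library was above every earlier one, and P3 spread most. The ratio differed among ages (exact permutation p = 0.00649, adjusted p = 0.0162), with a difference in log2 ratio of 0.52 between P28 and P1. The adjusted p was 0.0542 without library 6 of P7, 0.0955 without library 4 of P28 and 0.0527 without library 6 of P28 in the same exact test.

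The ratio of miR-23a to miR-23b was 21.7%, 17.9% and 16.4% at P1 and 16.3%, 15.6% and 15.9% at P28, with means of 17.2% ± 0.829 at P3 and 18.6% ± 0.311 at P7 (SD, n = 3). The P28 libraries were the 3 lowest of the 12, and P1 spread widely because of library 4. No difference among ages passed (exact permutation p = 0.109, adjusted p = 0.136). Without library 4 of P1 the permutation p was 0.0144 (adjusted p = 0.0259), and without library 6 of P1 it was 0.0105 (adjusted p = 0.0248), with log2 ratio differences between P28 and P1 of −0.11 and −0.31. With all 12 libraries the difference in log2 ratio between P28 and P1 was −0.22 for miR-23, beside 0.52 for miR-27.

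The ratio of miR-24-1-5p to miR-24-2-5p sets a 5p arm of the a cluster against one of the b cluster. Whether it follows the output of the clusters was not tested. The ratio was 4.57, 3.56 and 4.19 at P1 and 2.46, 3.26 and 3.50 at P3. At P7 it was 5.35, 5.15 and 7.25, and at P28 it was 3.48, 4.55 and 3.39. The P7 libraries were above all the others, in which the ages overlapped in part. Ages differed (exact permutation p = 0.00403, adjusted p = 0.0162), with an adjusted p of 0.0542 without library 6 of P7. For miR-27b, the 5p arm was 0.105%, 0.0460% and 0.0446% of the 3p arm at P1 and 0.0165%, 0.0198% and 0.0224% at P28, and the P28 libraries were at or near the bottom of the 12. Ages differed (exact permutation p = 0.0156, adjusted p = 0.0260), although the adjusted p was 0.0660 without library 4 of P1 and between 0.0501 and 0.116 without library 4 of P3 or any library of P7 or P28. The summed 5p arms of miR-24 were 1.71% ± 0.268 of miR-24-3p at P1 and 1.40% ± 0.154 at P28 (SD, n = 3), with no difference among ages that passed (exact permutation p = 0.234).

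**Figure D3:**
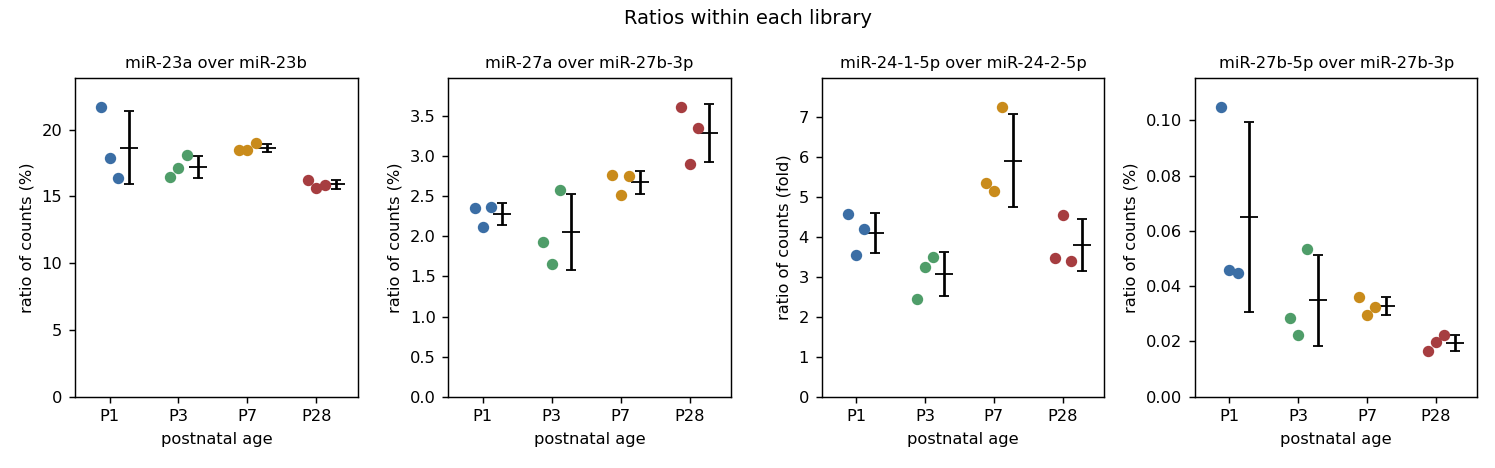
Ratio of counts within each library (vertical axes, each from 0, in percent or fold) against postnatal age for 4 pairs of members; points are libraries and the bar beside them is the mean with its SD (n = 3). The ratio of miR-27a to miR-27b-3p is highest in the P28 libraries (2.90% to 3.61%), and that of miR-24-1-5p to miR-24-2-5p is highest at P7 (5.15-fold to 7.25-fold).

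Members of the same cluster were not at a fixed ratio to each other. These ratios were chosen after the values were seen and were not tested. The ratio of miR-27a to miR-23a, both of the a cluster, averaged 1.15 at P1, 1.26 at P3, 0.919 at P7 and 1.94 at P28, and its P28 libraries ranged from 1.42 to 2.41. The ratio of miR-27b-3p to miR-23b in the b cluster averaged 9.21, 10.6, 6.42 and 9.33 at these ages. At P7 it was 6.34 to 6.47, a narrow range that lay below all the other libraries.

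Some counts of the a and b forms were fractional, and how the authors' counting made them is not given in the sources used here. Fractional counts of 0.5 (within 0.01) appeared in the same 4 libraries for miR-23a and miR-23b, in the same 5 libraries for miR-27a and miR-27b-3p, and in the same library for both 5p arms of miR-24, whereas miR-27b-5p had whole counts in all 12 libraries. miR-27b-3p was 27.7 to 60.3 times as abundant as miR-27a in single libraries, and whether reads of one form were assigned to the other was not tested.

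Over the 12 libraries, the members did not move as a block. As a description, Pearson's r of log2 CPM was 0.84 between miR-23a and miR-23b, 0.90 between miR-24-3p and miR-27a, 0.73 between miR-27a and miR-27b-3p, and 0.81 between miR-27b-3p and miR-24-2-5p, which come from the same cluster. Other pairs from the same cluster had lower values, with 0.19 between miR-23a and miR-27a, 0.34 between miR-23b and miR-27b-3p and 0.12 between miR-23b and miR-24-2-5p. Between miR-23a and miR-27b-3p, which come from different clusters, r was −0.02. Values of a library share its scaling, and libraries of an age share that age, so these 12 points are not independent.

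The tested miRNAs outside the group that were most like each member over the same 12 libraries were, for miR-27a, miR-142-5p and miR-26a (r = 0.91 each) and miR-29b (0.86), and for miR-27b-3p, miR-29c (0.87), miR-101 (0.78) and miR-29a (0.77). For miR-24-3p they were miR-1468 (0.92), miR-100 (0.89) and miR-95 (0.88). For miR-23b they were miR-423-5p (0.84), miR-146a-5p (0.83) and miR-191 (0.82), and for miR-23a they were miR-145-5p (0.83), miR-423-5p (0.75) and miR-1296-5p (0.75).

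Marker miRNAs of other cell types moved with age beside the members. The leukocyte miRNAs miR-142-5p, miR-142-3p and miR-150 were all higher at P28 than at P1, with a summed level of 58.3 to 70.2 CPM at P1, 90.2 to 106 CPM at P3, 126 to 148 CPM at P7 and 210 to 341 CPM at P28, and miR-223 was not analysed here. The P28 libraries stood in the order of miR-27a for miR-142-5p (163, 72.6 and 82.4 CPM), miR-142-3p and the erythroid miR-486, and in another order for miR-150 (107, 87.1 and 109 CPM), miR-144 and miR-451. The erythroid miRNAs miR-144, miR-451 and miR-486 were all called higher at P28, with a summed level of 1153 to 1813 CPM at P1 and 3919 to 4638 CPM at P28.

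The endothelial miRNAs miR-126-3p and miR-126-5p had log2 fold changes of 0.01 and 0.07 from P1 to P28, and their summed level was 21230 to 27472 CPM at P1 and 19952 to 26309 CPM at P28. Of the cardiomyocyte miRNAs, 7 entries were tested, and their sum was 385273 to 423507 CPM at P1 and 500738 to 600947 CPM at P28. miR-133a-3p (log2 fold change 0.75) and miR-133b (1.41) were called among them, and miR-1, which holds most of the sum, had a log2 fold change of 0.41 (adjusted p = 0.0158 in edgeR's test). The others were not called, with 0.04 for miR-208b, 0.08 for miR-499-5p, 0.65 for miR-499-3p and −0.18 for miR-133a-5p. The summed level of the 6 cardiomyocyte genes averaged 85349 CPM at P1 and 85843 CPM at P28, with ACTC1 called lower (−0.60) and MYBPC3 higher (0.57) among them. Of the smooth muscle miRNAs, the 4 arms of miR-143 and miR-145, none was called from P1 to P28, and their sum was 132828 to 167016 CPM at P1 and 121742 to 144947 CPM at P28. Among the 5 endothelial genes in total RNA, PLVAP was called lower (−0.74) and TEK higher (0.53) at P28 than at P1. The others were not called, with −0.69 for ENG, −0.35 for CDH5 and −0.32 for TIE1. The summed level of the 5 genes was 918 to 1218 CPM at P1 and 849 to 906 CPM at P28, so that P28 lay below P1. TIE1 was called lower at P28 than at P7 (−0.71). The smooth muscle gene MYLK was called lower at P28 than at P7 (−0.80). No listed marker with values was at 0 over the libraries, and of the listed marker genes 6 of 7 for cardiomyocytes, 5 of 8 for endothelium and 1 of 5 for smooth muscle had values here. The part of these cell types in the rise of miR-27a, miR-24-3p and miR-27b-3p was not tested.

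**Figure D4:**
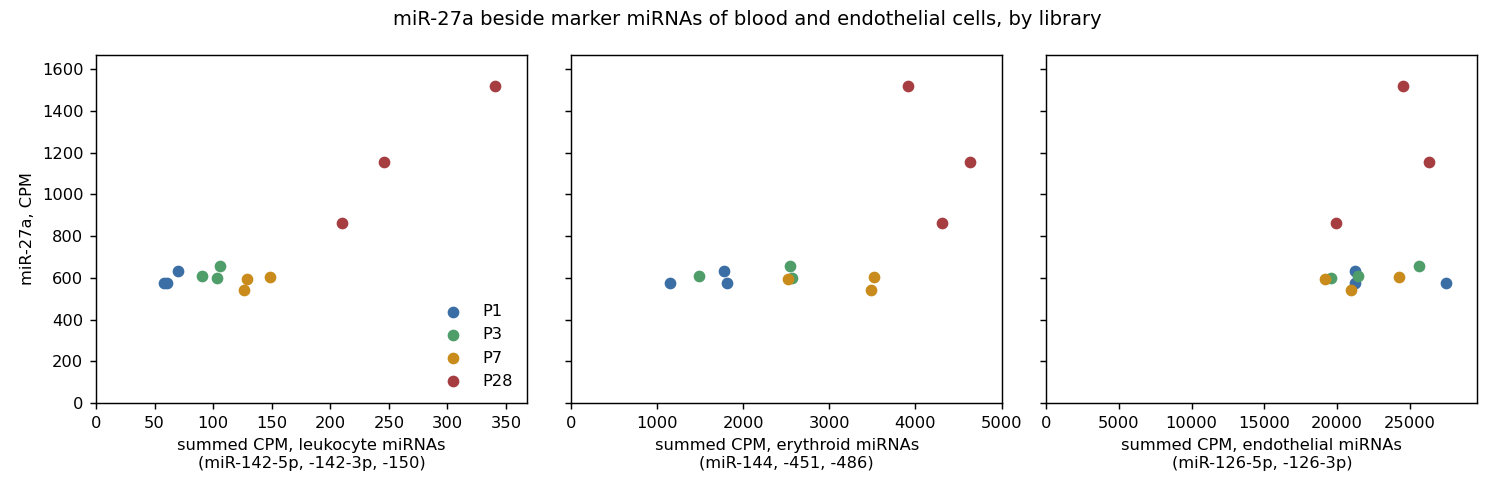
miR-27a (vertical axis, CPM) in each of the 12 libraries against the summed CPM of leukocyte, erythroid and endothelial marker miRNAs (horizontal axes, all from 0), coloured by age. The P28 libraries are highest in leukocyte miRNAs (210 to 341 CPM) and erythroid miRNAs (3919 to 4638 CPM) and lie within the range of the other ages in endothelial miRNAs.

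Genes known from other work as targets of these miRNAs were looked up in total RNA of the same batch. The gene table used here covers 9815 genes on chromosomes 1, 2, 6 and 13, so that 13 of 31 listed targets could be tested among 5526 genes, and the neighbours ZSWIM4, NANOS3, AOPEP and FANCC were not analysed here. From P1 to P28, 6 of the 13 were called, 3 higher and 3 lower, where 23.1% of all genes were called. From P1 to P7, 4 were called, all higher (ABCA1, SEMA6D, HMGN2 and E2F2), beside 11.7% of all genes called and 7.65% called higher. The 3 higher compare with 11% of all genes called higher, and the 3 lower with 12.1% called lower. From P7 to P28, 7 were called, 3 higher and 4 lower, beside 25.1% of all genes. The median log2 fold change of the 13 from P1 to P28 was 0.14, against 0.00 for all genes.

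Among listed targets of miR-27, ABCA1, a cholesterol exporter, was 197, 188 and 162 CPM at P1 and 357, 465 and 445 CPM at P28. The groups did not overlap, and the log2 fold change was 1.21 ± 0.20 (adjusted p = 0.00239 in edgeR's test). PPARG, the nuclear receptor of fat cell formation, was 21.9, 16.2 and 17.8 CPM at P1 and 13.2, 9.55 and 9.16 CPM at P28. It was lower in all 3 libraries, with a log2 fold change of −0.80 ± 0.20 (adjusted p = 0.0193 in edgeR's test). RXRA, its partner receptor, TGFBR1, a TGF-beta receptor, and SMAD4, which carries that signal, were not called between P1 and P28. RXRA was 101, 120 and 102 CPM at P1 and 126, 365 and 164 CPM at P3, with library 5 of P3 far above the rest. It was called higher at P3 than at P1 (log2 fold change 1.02 ± 0.31, adjusted p = 0.196 in edgeR's test) and lower at P7 than at P3 (−1.10 ± 0.31, adjusted p = 0.0884 in edgeR's test). Without library 5 of P3 these values were 0.43, no longer a call, and −0.50, still a call.

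Among listed targets of miR-23, FOXO3, a transcription factor of muscle wasting, had a log2 fold change of 0.75 ± 0.21 at P28 (adjusted p = 0.0311 in edgeR's test), and LPAR1, a lysophosphatidic acid receptor, fell by 0.64 (SE 0.17, adjusted p = 0.0222). HMGN2, a chromatin protein, rose at P7 with a log2 fold change of 0.66 ± 0.15 (adjusted p = 0.0435 in edgeR's test) and had a log2 fold change of −0.06 at P28. SEMA6D, a semaphorin, had a log2 fold change of 0.57 ± 0.23 at P7 (adjusted p = 0.228 in edgeR's test), and this call was lost without library 4 of P1 (0.33) or library 4 of P7 (0.54). TRIM63, a muscle ubiquitin ligase, was not called between P1 and either age.

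Among listed targets of miR-24, E2F2, a cell cycle transcription factor, was 6.34, 8.71 and 11.6 CPM at P1, 20.8, 29.8 and 19.6 CPM at P7 and 3.69, 5.19 and 1.38 CPM at P28. All 3 libraries of P7 were above, and all 3 of P28 below, those of P1. From P7 to P28 it fell by 2.76 on the log2 scale (SE 0.48, adjusted p = 0.00239 in edgeR's test), while its calls against P1 had adjusted p values of 0.121 at P7 and 0.0712 at P28. GATA2, a blood and endothelial transcription factor listed for miR-24 and miR-27, had a log2 fold change of 0.76 ± 0.29 at P28 (adjusted p = 0.0926), and its call was lost without library 5 of P1 (log2 fold change 0.69), library 6 of P1 (0.63) or library 6 of P28 (0.70). The call of E2F2 at P28 was lost without library 6 of P1 (−1.13) or library 6 of P28 (−0.999). PAK4, a kinase, was not called between P1 and P7 or P28, and its log2 fold change from P1 to P3 was 0.62 ± 0.25, a call with an adjusted p of 0.282 in edgeR's test that was lost without library 4 of P1 (0.49), library 5 of P3 (0.45) or library 6 of P3 (0.61). With a library left out, the targets called ranged from 4 to 7 for P1 to P28, from 3 to 4 for P1 to P7 and from 6 to 8 for P7 to P28. At the other comparisons the calls rested more on single libraries. From P1 to P3, 3 targets were called, RXRA and PAK4 higher and LPAR1 lower (−0.50), beside 10.6% of all genes, with 0 without library 5 of P3 and 5 without library 5 of P1 or library 4 of P3. From P3 to P7, 5 were called, beside 13% of all genes. HMGN2 (0.69, adjusted p = 0.0374 in edgeR's test), ABCA1 (0.69, adjusted p = 0.0942), E2F2 (1.14, adjusted p = 0.187) and LPAR1 (0.50, adjusted p = 0.136) were higher and RXRA was lower. With a library left out, LPAR1 kept its call in 5 of 12 fits (0.33 to 0.63). E2F2 kept its call in 9 of 12 (0.79 to 1.68). Without library 5 of P3, 3 targets were called. Against the mean of the later ages ABCA1 alone was called (0.59), beside 9.41% of all genes. This call was lost without library 6 of P1 (0.498, adjusted p = 0.354 in edgeR's test). Up to 3 targets were called without library 5 of P1 or library 4 of P3. The counts of a target in total RNA do not show its protein, and targets on other chromosomes were not analysed here.

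**Figure D5:**
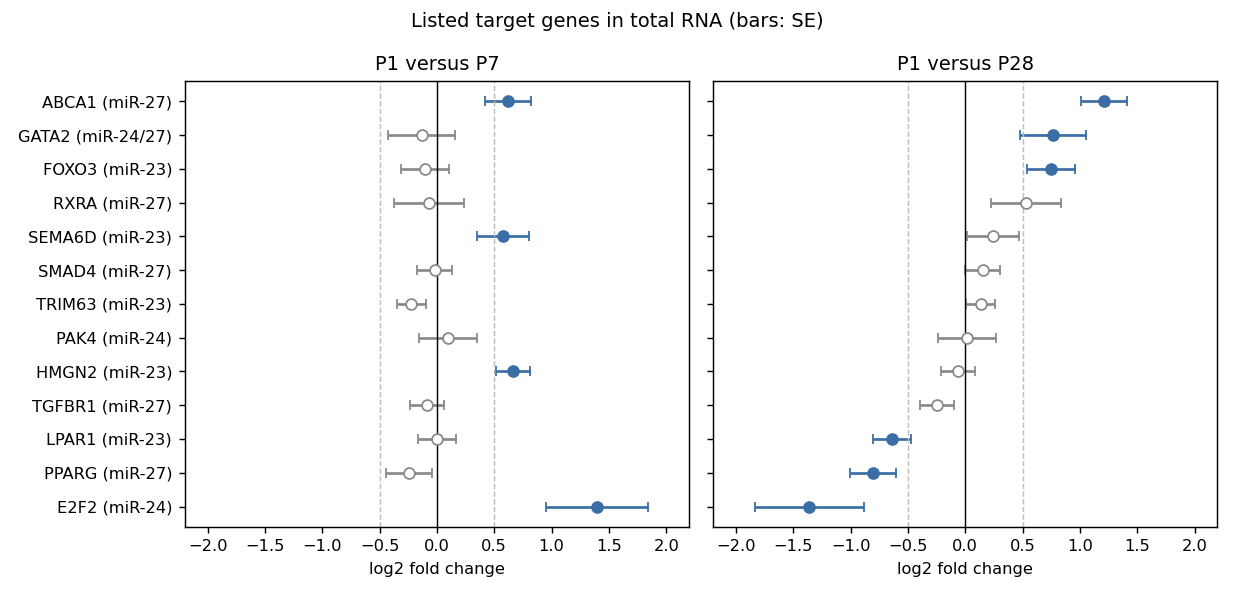
Log2 fold change in total RNA (horizontal axis, later over earlier age) of the 13 listed target genes that were tested, for P1 against P7 and P1 against P28, with bars of 1 SE; filled points were called and dashed lines mark −0.5 and 0.5. At P28 the called targets lie on both sides, from −1.36 for E2F2 to 1.21 for ABCA1.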

How the data were processed

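Small RNA libraries of batch cd were prepared with the NEBNext Small RNA kit. The authors deposited unnormalized expected counts, 1 entry for each mature miRNA of each precursor, in which 81.0% of the values are whole within 0.001. They also deposited read counts per gene from total RNA, of which 1 line without counts was left out. The miRNA counting tool and the genome builds of these tables are not given in the sources used here. The submitters' notes name STAR 2.7.9a, MultiQC 1.11 and the build Sscrofa10.2, without the file each belongs to. The study describes these 3 under the identification of circRNAs. CircRNA files were not used.

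Expected counts were summed over the precursors of a mature miRNA and rounded. Features that reached 10 counts in 3 or more of the 12 libraries were tested with edgeR 4.0.16 (quasi-likelihood, TMM, 4 ages in one fit, no covariate) in R 4.3.3, with Benjamini-Hochberg adjustment over all tested features. P3 against P7 and P7 against P28 came from the same fit. DESeq2 1.42.0 served as an alternative. Ratios were tested in Python 3.11.15 with scipy 1.17.1, and plots used matplotlib 3.10.9. Scripts were tested on simulated data.

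Members, gene lists and tests were chosen with earlier results of these data known. Named features are the members, the 3 miRNAs most correlated with each member of at least 100 CPM on average, and the listed targets, neighbours and markers. Gene totals were 8887176 to 14883849 per library. Replicates correlated at 0.983 to 0.994 across miRNAs and differed by more than sampling noise. The column numbers 4 to 6 do not match the sample numbers of the labels, so columns were matched to ages only.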

Additional observations from a re-analysis of the deposited data

How the results depend on the processing

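Alternatives changed the scaling (DESeq2's size factors, library totals), the test (DESeq2), the filter, the unit of counting, the ages in the fit, the threshold, the replicate block and the libraries. Library totals without the miRNAs that hold over 10% of the reads were added after seeing the data. The cause of the changes below was not tested. Of 424 fold changes of members under settings that keep all libraries, 397 kept their direction and their side of the threshold, as did 523 of 576 with a library left out, and no called fold change changed its sign. With an adjusted p under 0.05 as the threshold, 0 members were called from P1 to P3 and 5 from P1 to P28. With library totals, 0 were called from P1 to P3, 1 from P3 to P7 and 2 from P7 to P28. Without the most abundant miRNAs in the totals, 1 was called from P3 to P7 and 2 from P7 to P28, and with only the ages compared, 0 from P1 to P3. From P1 to P7, P1 to P3 and P3 to P7, the share of higher miRNAs among all called was 51.4%, 61.8% and 54.1% under TMM, 73.0%, 77.1% and 63.9% with library totals, and 64.5%, 61.8% and 71.7% without the most abundant miRNAs in the totals. With a library left out, the members called ranged from 0 to 1 for P1 to P3, from 1 to 2 for P3 to P7, from 2 to 4 for P1 to P28 and from 3 to 5 for P7 to P28. The listed targets called ranged from 0 to 5 for P1 to P3, from 3 to 7 for P3 to P7 and from 1 to 3 for P1 against later ages.

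Each small RNA library came from a different pig, so libraries with the same number, 4 to 6, share no animal. As a description, deviations of libraries with the same number correlated at −0.27 to 0.20. With the replicate block by that number, 3 members were called from P1 to P28 and 5 from P7 to P28, where miR-24-1-5p joined at a log2 fold change of 0.50, and 96 in place of 97 of all miRNAs were called from P1 to P28.

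Among the ratios, with a library left out, the log2 difference between P28 and P1 ranged from −0.31 to −0.11 for miR-23a over miR-23b, which passed without library 4 or without library 6 of P1. It ranged from 0.45 to 0.61 for miR-27a over miR-27b-3p (adjusted p up to 0.0955), from −0.25 to −0.035 for miR-24-1-5p over miR-24-2-5p (up to 0.0542) and from −1.84 to −1.22 for miR-27b-5p over miR-27b-3p (up to 0.116).

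Fold changes that changed sign were small and not called. For miR-24-3p from P3 to P7 the log2 fold change was −0.0088 with DESeq2's size factors, −0.0087 with DESeq2's test, −0.042 with an entry per precursor and −0.016 with the largest entry, and miR-23a from P7 to P28 was 0.0051 with the largest entry. With library totals, miR-27a from P1 to P7 was 0.12, miR-23a from P1 to P28 was −0.058 and miR-23b from P7 to P28 was −0.19. Without the most abundant miRNAs in the totals, miR-27a from P1 to P7 was 0.048 and miR-23b from P7 to P28 was −0.060. With a library left out, miR-23a ranged from −0.36 to 0.11 for P1 to P3, from −0.024 to 0.41 for P1 to P7, from −0.12 to 0.31 for P1 to P28 and from −0.17 to 0.28 for P1 against later ages. miR-24-3p ranged from −0.051 to 0.075 for P1 to P3, from −0.042 to 0.075 for P1 to P7 and from −0.046 to 0.11 for P3 to P7. miR-23b (−0.15 to 0.12), miR-24-2-5p (−0.024 to 0.16) and miR-27a (−0.050 to 0.17) did so for P1 to P3, miR-27a (−0.15 to 0.038) for P1 to P7, miR-24-1-5p (−0.044 to 0.24) for P3 to P7, miR-27b-3p (−0.021 to 0.26) for P1 against later ages and miR-27b-5p (−0.18 to 0.045) for P7 to P28.

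The minor arms rest on 21 to 153 counts per library for miR-27b-5p and miR-24-2-5p, so small changes in them were not detectable at this depth. With 3 pigs at each age, differences within the spread between pigs were not detectable either.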

Other observations

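The miR-181 family members miR-181c and miR-181d-5p, which RefSeq places nearest to the a cluster on chromosome 2 among the miRNAs of the table, were not called in any of the 6 comparisons. miR-181c was 26.02, 32.28 and 21.50 CPM at P1 and 34.4, 39.7 and 29.8 CPM at P28. The groups overlapped, with a log2 fold change of 0.39 ± 0.22 (adjusted p = 0.183 in edgeR's test). miR-181d-5p was 85.4, 107 and 91.9 CPM at P1 and 100.5, 127 and 141 CPM at P28, with a log2 fold change of 0.37 ± 0.18 (adjusted p = 0.123 in edgeR's test). Beside them, miR-27a of the a cluster had a log2 fold change of 0.98 and miR-23a one of 0.15 over the same ages.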
